A study of Mus musculus with 11 samples.

Results

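Genes of fatty acid oxidation and genes known as targets of the nuclear receptor PPAR-alpha were followed in hearts of female mice, as a list of 39 named genes. A gene entered through its symbol alone: its row in the deposited table had to carry a RefSeq accession that belongs to that symbol in the mouse assembly GRCm38. The rule itself holds no cut-off on a measured value. Of the 39 genes, 37 had a row among the 21878 rows of the table, of which 19074 carry a symbol; Plin2 and Mlycd were not analysed here. The 37 comprised 20 core enzymes of mitochondrial oxidation, 6 inducible targets (Pdk4, Ucp2, Ucp3, Acot1, Acot2 and Angptl4) and 11 genes of fatty acid uptake, lipid droplets, transcriptional regulation and malonyl-CoA control. All 37 had a mean FPKM (reads of a gene divided by its length in kilobases and by the size of the library) of at least 1, the minimum for testing.

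The series compared heart RNA of a mouse model of polycystic ovary syndrome (PCOS) with that of control mice. The PCOS group (5 samples) was made by exposing female mice before birth to anti-Müllerian hormone (AMH), a hormone of the ovarian follicle. The control group (6 samples) received PBS, the vehicle, before birth. Every sample is labelled wild type; strain, age, AMH dose and litter were not given in the sources used here. Nothing there says that each sample is 1 animal, and the p-values below therefore speak only for the variation among these samples, part of which may be technical.

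The heart draws most of its energy from fatty acids. They enter the cell through carriers such as CD36, are activated to acyl-CoA, cross into the mitochondrion through the carnitine shuttle and are shortened step by step in beta-oxidation, which hands electrons to the respiratory chain. PPAR-alpha, paired with a retinoid X receptor, binds fatty acids and activates many of these genes; targets such as Pdk4, Ucp3, Angptl4 and Acot1 are known to respond strongly to fasting and to circulating fatty acids, while the enzymes of the cycle itself are abundant standing components of heart mitochondria.

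Reads recovered from the FPKM values summed to between 11866291 and 14346620 per sample. Cardiomyocyte markers were high in every sample: the summed level of the 7 of 8 markers with a row was 30870 to 35400 FPKM in controls and 34350 to 36920 in PCOS. Control replicate 6 stood apart. Its median correlation with the other samples across rows was 0.962, against 0.987 to 0.993 for the other 10. Liver markers (9 of 9 with a row) summed to 1868 FPKM in it and to at most 13.54 in any other sample, and adipocyte markers (7 of 8 with a row) to 75.81 and at most 4.073. Many of the results that rest on this library are given with and without it.

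No gene of the list passed the test in PCOS against control hearts. With limma on log2(FPKM + 1) and an adjusted p under 0.05 over all 10891 tested rows, 0 of 37 members were called; among all rows 15 were called, which is 0.138% and all of them higher in PCOS. An unadjusted p under 0.05 was reached by 4 members of 37, against 6.68% of all rows (3.51% higher and 3.17% lower). Cpt1a, Acot2 and Cd36 were lower and Ucp2 was higher, each with an adjusted p of 0.738. limma's voom on the recovered reads also called 0 members, with 1 higher and 3 lower at an unadjusted p under 0.05. The groups overlapped for all 37 genes, while the PCOS samples lay wholly above the controls in 0.45% of rows and wholly below in 0.248%.

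**Figure D1:**
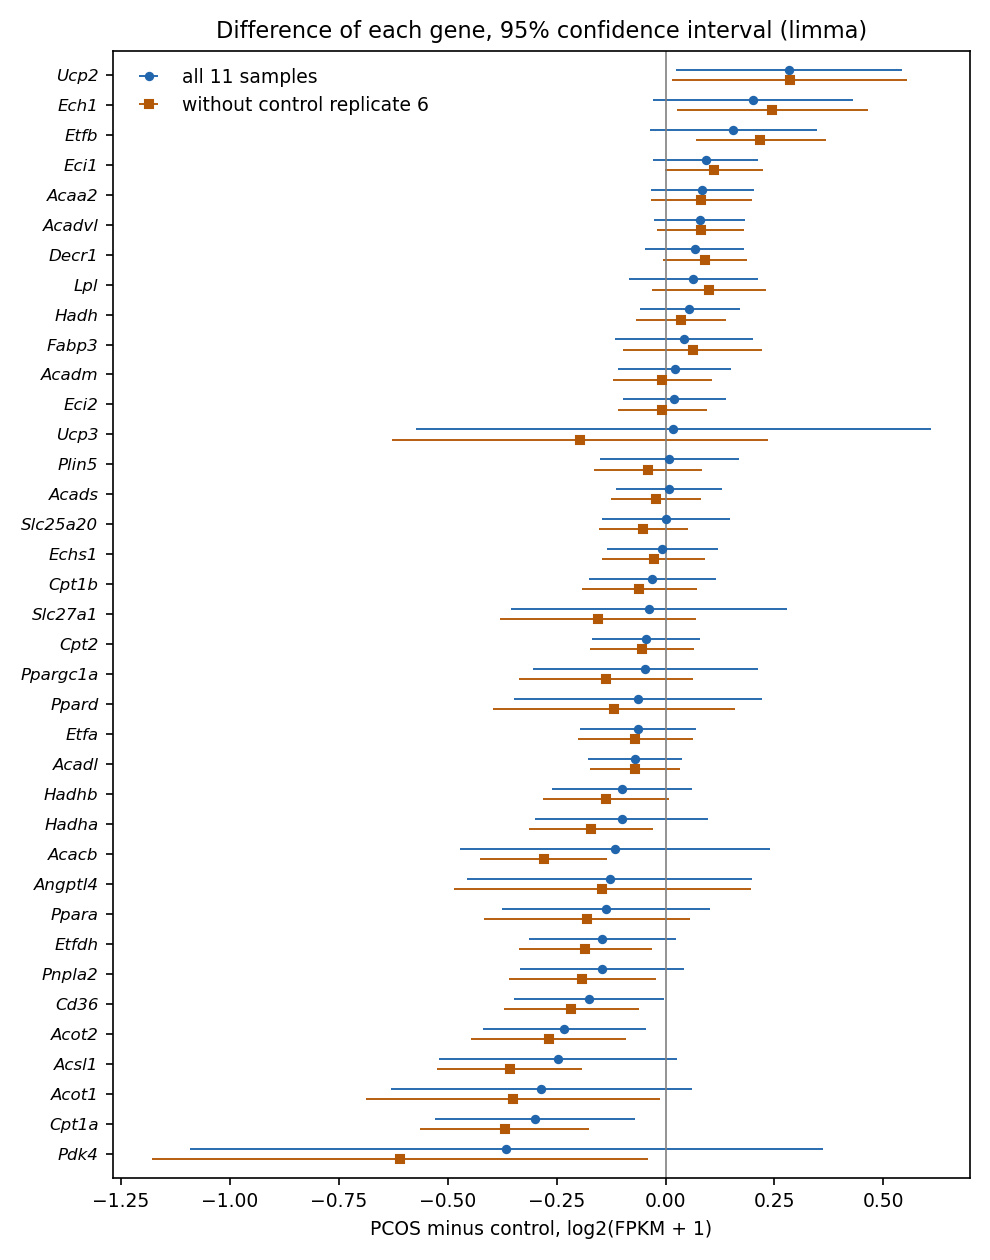
Difference between PCOS and control hearts for each of the 37 genes on the log2(FPKM + 1) scale (horizontal axis), sorted by size, with 95% confidence intervals from limma. Circles use all 11 samples and squares leave out control replicate 6. Intervals are narrow for most enzymes of the cycle and wide for Pdk4 and Ucp3.

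Among the genes of uptake and activation, Fabp3 and Lpl were the 2 most abundant transcripts of the list. Fabp3 encodes the heart fatty acid binding protein, which carries fatty acids through the cytosol, and its level was 8254 ± 735 FPKM in controls (SD, n = 6) and 8489 ± 688 in PCOS (SD, n = 5). Lpl, the lipase that frees fatty acids from circulating lipoproteins, was at 1645 ± 147 and 1716 ± 94.2. Their differences of 0.04 and 0.06 on the log2 scale were both smaller than their standard errors of 0.07 each.

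Cd36, the membrane receptor that takes up long-chain fatty acids, ranged in controls from 305.8 to 379.5 FPKM with a median of 368.0. The PCOS samples 1 to 5 had 273.6, 294.8, 320.1, 353.1 and 321.5. The lowest samples were PCOS replicates 1 and 2 and control replicate 6, and the remaining PCOS samples lay among the controls. The difference was -0.18 ± 0.08 (SE; 95% interval -0.35 to -0.003; unadjusted p = 0.0468, limma), which did not pass after adjustment. Without control replicate 6 the difference was -0.22 ± 0.07 (unadjusted p = 0.00967, adjusted p = 0.144, limma). In bulk tissue, fewer cells of a type and less RNA per cell cannot be told apart.

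Acsl1 encodes the main acyl-CoA synthetase of the heart, which activates fatty acids for oxidation. Controls ranged from 96.65 to 167.2 FPKM with a median of 151.4, and the PCOS samples had 103.8, 114.7, 128.8, 132.0 and 122.7. Control replicate 6 was the lowest of all 11 samples, and the other 5 controls all lay above every PCOS sample. The difference was -0.25 ± 0.13 with an unadjusted p of 0.0737, and -0.36 ± 0.08 without control replicate 6 (adjusted p = 0.0806, limma). Slc27a1, a fatty acid transport protein, showed no such separation: it had 54.2 ± 11.7 FPKM in controls and 52.0 ± 6.83 in PCOS.

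In the carnitine shuttle the heart form and the liver form of the first enzyme were 21.5-fold apart in controls. Cpt1b, the muscle and heart isoform of carnitine palmitoyltransferase 1, had 293 ± 23.8 FPKM in controls and 287 ± 17.9 in PCOS. Cpt1a, the isoform best known from liver, had the smallest unadjusted p of the list. Its controls ranged from 10.52 to 16.57 FPKM with a median of 13.80, and the PCOS samples had 9.287, 12.64, 10.31, 12.50 and 10.20. Control replicate 6 lay within the PCOS range and the 5 other controls, at 13.29 or more, lay above all PCOS samples.

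The Cpt1a difference was -0.30 ± 0.11 (95% interval -0.53 to -0.07; unadjusted p = 0.0146, adjusted p = 0.738, limma), and without control replicate 6 it was -0.37 ± 0.09 (adjusted p = 0.0953). The ratio of Cpt1b to Cpt1a FPKM was 18.0 to 25.0 in controls and 22.9 to 32.7 in PCOS, with means of 21.5 ± 2.79 and 26.5 ± 4.01, and the groups overlapped. Cpt2, which rebuilds acyl-CoA inside the mitochondrion, was at 142 ± 6.56 and 138 ± 8.62 FPKM. Slc25a20, the carnitine-acylcarnitine carrier of the inner membrane, was at 137 ± 12.2 and 137.0 ± 4.83, a difference of 0.00 ± 0.07.

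The promoter of Cpt1a is shown because the gene had the smallest p of the list. It is the 250 bases before the start in the RefSeq promoter table, chr19:3323051-3323300 on the plus strand of GRCm38.p6, 5′ to 3′. The RefSeq span of the gene begins 975 bases upstream of that start, so the window lies within the span. Where the measured transcript itself starts was not looked up. Capitals mark AGGTCA, the hexamer that nuclear receptors bind, written as TGACCT where it lies on the other strand.
Cpt1a: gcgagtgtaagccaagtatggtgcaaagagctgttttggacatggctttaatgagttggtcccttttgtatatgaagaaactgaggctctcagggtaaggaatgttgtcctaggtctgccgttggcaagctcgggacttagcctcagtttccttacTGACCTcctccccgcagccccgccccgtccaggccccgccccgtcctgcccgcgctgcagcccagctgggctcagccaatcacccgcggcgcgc
The window holds 1 such hexamer and no direct repeat of it.

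Acacb makes malonyl-CoA at the mitochondrial surface, the molecule that inhibits carnitine palmitoyltransferase 1. Its controls ranged from 27.19 to 61.32 FPKM with a median of 52.57, and the PCOS samples had 42.95, 43.27, 42.83, 50.38 and 46.23. The low value was control replicate 6, and the other 5 controls (50.54 or more) lay above all PCOS samples, by a margin of less than 1 FPKM at the closest. The difference was -0.12 ± 0.17 over all samples and -0.28 ± 0.07 without control replicate 6 (adjusted p = 0.0953, limma). Cpt1a, Acsl1 and Acacb were the 3 members of 37 whose groups separated when that library was left out, all with PCOS below; 1.85% of all rows did so in that direction.

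The 4 acyl-CoA dehydrogenases, which take the first step of each cycle on chains of different length, were among the most even transcripts in the data. Acadl and Acadvl, for long and very long chains, were at 729 ± 22.1 and 658 ± 15.6 FPKM in controls and at 695 ± 32.1 and 695 ± 30.4 in PCOS. Acadm, for medium chains, was at 714 ± 34.7 and 725 ± 49.9, and Acads, for short chains, at 151 ± 7.59 and 152 ± 7.78. Their differences ran from -0.07 to 0.08 on the log2 scale, and the smallest unadjusted p was 0.132, for Acadvl. The pooled SD within groups was 0.05 for Acadvl, a spread below that of all but 0.5% of tested rows.

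Among the later steps of the cycle, Acaa2, Hadh and Echs1 were about as even. Acaa2, the thiolase that releases acetyl-CoA, had 835 ± 41.7 FPKM in controls and 885 ± 44.6 in PCOS. Hadh, the short-chain hydroxyacyl-CoA dehydrogenase, ranged from 429.7 to 483.5 in controls and from 459.3 to 510.1 in PCOS. Echs1, the short-chain enoyl-CoA hydratase, had means of 297 ± 20.3 and 295 ± 12.9. None of the 3 had an unadjusted p under 0.147.

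Hadha and Hadhb encode the subunits of the mitochondrial trifunctional protein, which carries out the last 3 steps on long chains. Hadha ranged in controls from 374.4 to 543.4 FPKM with a median of 502.1, and the PCOS samples had 405.1, 423.3, 435.1, 509.4 and 462.4. Hadhb ranged from 254.0 to 320.9 with a median of 286.3, and PCOS had 242.8, 253.0, 290.2, 301.7 and 260.0. Control replicate 6 was low for both and control replicate 4 high for both. Both differences were -0.10, with standard errors of 0.09 and 0.08. Without control replicate 6 they were -0.17 ± 0.07 for Hadha (unadjusted p = 0.0222, adjusted p = 0.186, limma) and -0.14 ± 0.07 for Hadhb. The ratio of Hadha to Hadhb was 1.66 ± 0.106 in controls and 1.66 ± 0.101 in PCOS, with single samples between 1.47 and 1.79.

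The 2 genes lie head to head on chromosome 5, Hadha at 30119423 to 30154980 and Hadhb at 30155253 to 30184593 (GRCm38.p6), with 272 bases between them. The 250 of these bases next to Hadhb are shown because they lie upstream of both genes: chr5:30155003-30155252, on the plus strand in the direction of Hadhb.
Hadhb: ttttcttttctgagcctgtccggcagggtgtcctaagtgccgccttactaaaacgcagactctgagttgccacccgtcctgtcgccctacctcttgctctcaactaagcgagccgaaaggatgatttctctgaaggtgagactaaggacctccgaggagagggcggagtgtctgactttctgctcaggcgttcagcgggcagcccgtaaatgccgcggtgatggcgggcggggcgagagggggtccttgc
It is all in lower case because it holds no AGGTCA on either strand.

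Of the 4 auxiliary enzymes that handle unsaturated chains, all had a difference above 0, and none passed the test. Ech1, a dienoyl-CoA isomerase, varied most: controls ranged from 1217 to 1870 FPKM with a median of 1726, and PCOS samples had 2056, 1863, 1679, 1799 and 1835. Control replicates 2 and 5, at 1391 and 1217, were the lowest, and the other 4 controls lay in the PCOS range. The difference was 0.20 ± 0.11 (unadjusted p = 0.0814, limma). Eci1 and Eci2, enoyl-CoA isomerases, had differences of 0.09 ± 0.06 and 0.02 ± 0.06, and Decr1, the dienoyl-CoA reductase, 0.07 ± 0.05.

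The electron transfer genes split. Etfb, the beta subunit of the flavoprotein that accepts electrons from the dehydrogenases, had 1129 ± 141 FPKM in controls and 1256 ± 122 in PCOS, and Etfa, its partner subunit, at 552 ± 24.9 and 529 ± 42.2. Etfdh, which passes the electrons on to ubiquinone, ranged in controls from 314.6 to 384.9 with a median of 370.2, and had 286.7, 294.4, 332.8, 362.9 and 357.5 in PCOS. PCOS replicates 1 and 2 were the lowest for Etfdh and, with control replicate 6, the highest for Etfb. The differences were 0.16 ± 0.09 for Etfb, -0.06 ± 0.06 for Etfa and -0.15 ± 0.08 for Etfdh, with unadjusted p-values of 0.102, 0.323 and 0.087. Without control replicate 6 they were 0.22 ± 0.07 for Etfb, -0.07 ± 0.06 for Etfa and -0.18 ± 0.07 for Etfdh. The unadjusted p-values were then 0.00763, 0.276 and 0.0213 and the adjusted ones 0.136, 0.567 and 0.184 (limma). The ratio of Etfb to Etfa was 1.75 to 2.57 in controls and 1.98 to 3.03 in PCOS.

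**Figure D2:**
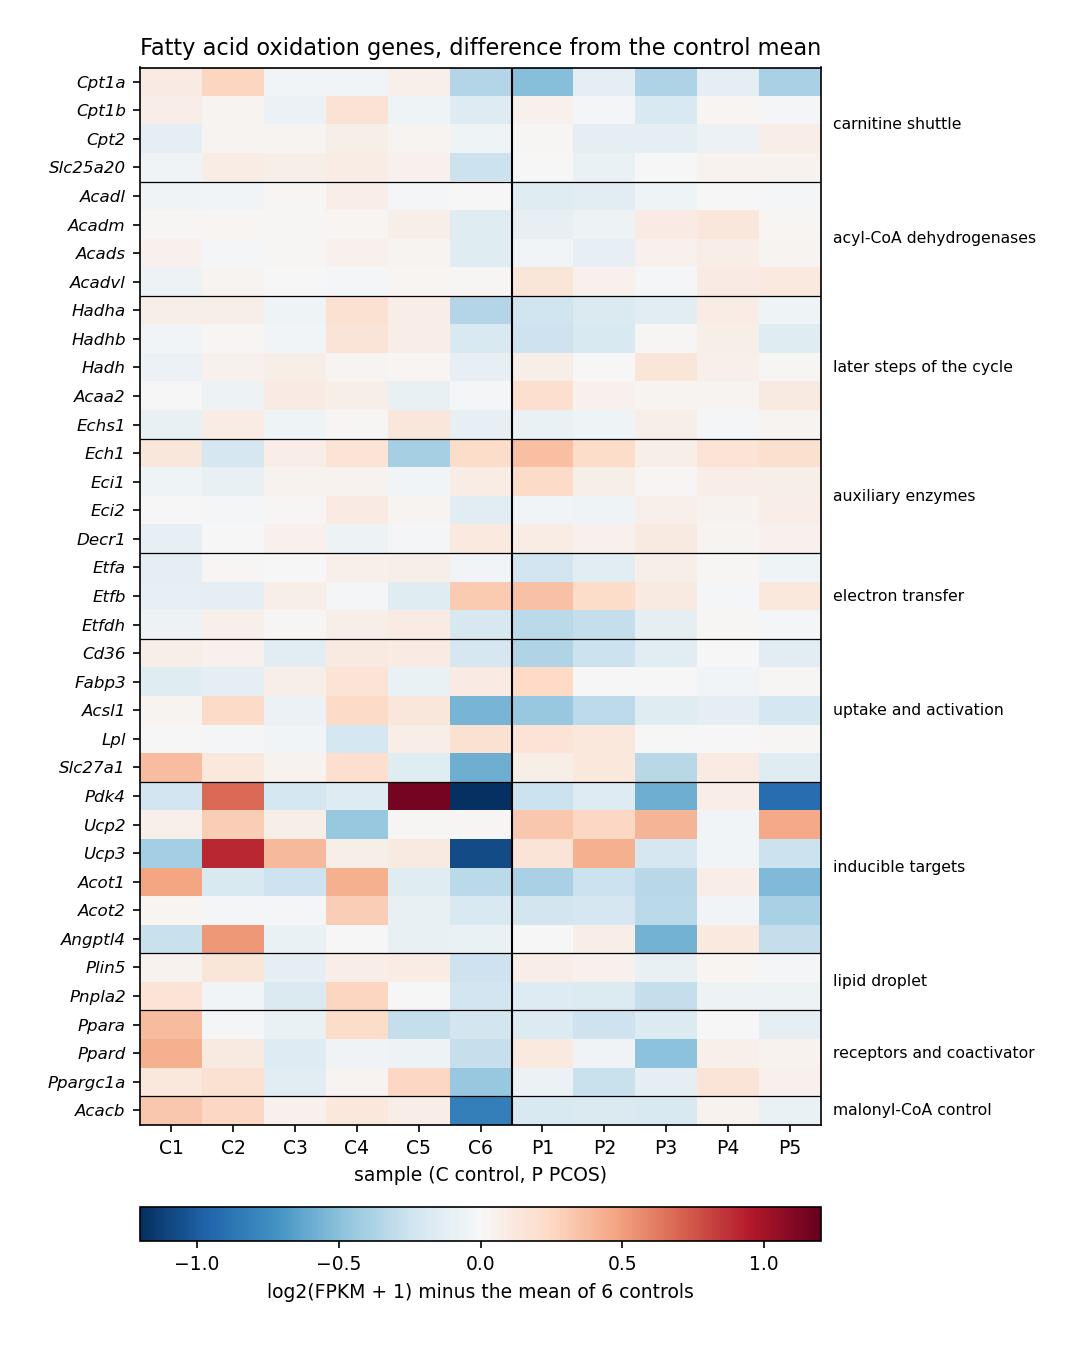
Level of each of the 37 genes (rows, grouped by role) in each of the 11 samples (columns, C for control and P for PCOS) as log2(FPKM + 1) minus the mean of the 6 controls; the colour saturates at the ends of its bar. Rows of the enzymes of the cycle are pale in nearly all samples, the strongest colours are in Pdk4 and Ucp3 and in single control libraries, and control replicate 6 is the lowest sample for 14 genes.

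Pdk4 and Ucp3 had the widest spread within groups of all 37 genes, and none of the 6 inducible targets passed the test. Pdk4 encodes the kinase that shuts off pyruvate dehydrogenase and so turns the cell from glucose to fatty acids. Its controls, replicates 1 to 6, had 60.94, 115.3, 61.78, 64.29, 160.5 and 30.21 FPKM, and the PCOS samples had 59.99, 64.43, 47.64, 75.87 and 37.59. Control replicates 2 and 5 were above every PCOS sample, control replicate 6 below every one, and the 3 other controls within the PCOS range.

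The Pdk4 difference was -0.37 ± 0.34 (95% interval -1.09 to 0.36; unadjusted p = 0.297, adjusted p = 0.809, limma). It was -0.61 ± 0.26 without control replicate 6 (unadjusted p = 0.0377, adjusted p = 0.228), 0.09 without control replicates 2 and 5, and -0.16 ± 0.18 without all 3. The estimate thus moved with which of these 3 control libraries were kept, and it was above 0 with the high pair left out and the low library kept. Immediate-early genes, which respond to stress and handling within minutes (7 of 7 with a row), summed to 490.4 FPKM in control replicate 5. The other controls had 105.5 to 357.4, and in PCOS the range was 197.0 to 438.1. The 357.4 was in control replicate 6, which had the lowest Pdk4, and the 438.1 in PCOS replicate 3, with Pdk4 at 47.64. Clock output genes (8 of 8) summed to 153.9 in control replicate 5, 180.5 in control replicate 2 and up to 224.8 in the other controls. In PCOS these sums were 174.8 to 225.4. Control replicate 2, the other library high for Pdk4, had an immediate-early sum of 234.1. Their part in the Pdk4 values was not tested.

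Ucp3, a mitochondrial carrier known to rise when fatty acid supply is high, had 18.14, 46.51, 32.19, 25.68, 26.26 and 11.07 FPKM in control replicates 1 to 6. The PCOS samples had 27.23, 33.13, 21.07, 23.73 and 20.16. All PCOS samples lay inside the control range, which control replicates 2 and 6 bounded. The difference was 0.02 ± 0.27 (95% interval -0.57 to 0.61), and -0.20 ± 0.20 without control replicate 6 (95% interval -0.63 to 0.24), so neither its size nor its direction was resolved.

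Angptl4, a secreted inhibitor of lipoprotein lipase, was the least abundant gene of the list. Its controls had 1.529, 3.370, 1.890, 2.039, 1.860 and 1.882 FPKM and the PCOS samples 2.063, 2.230, 1.062, 2.307 and 1.494. Control replicate 2 stood above all other samples, and the rest overlapped. These values rest on 29 to 89 reads per sample, and the difference of -0.13 ± 0.15 was smaller in size than its standard error.

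Promoters of Pdk4 and Ucp3 are shown because these genes had the widest spread of the list: 250 bases before the RefSeq start, at chr6:5496279-5496528 on the minus strand for Pdk4 and chr7:100472741-100472990 on the plus strand for Ucp3.
Pdk4: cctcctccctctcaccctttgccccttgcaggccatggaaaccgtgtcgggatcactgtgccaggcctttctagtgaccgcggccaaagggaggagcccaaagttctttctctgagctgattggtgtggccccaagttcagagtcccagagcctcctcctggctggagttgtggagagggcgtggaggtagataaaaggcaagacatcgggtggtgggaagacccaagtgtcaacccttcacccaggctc
Ucp3: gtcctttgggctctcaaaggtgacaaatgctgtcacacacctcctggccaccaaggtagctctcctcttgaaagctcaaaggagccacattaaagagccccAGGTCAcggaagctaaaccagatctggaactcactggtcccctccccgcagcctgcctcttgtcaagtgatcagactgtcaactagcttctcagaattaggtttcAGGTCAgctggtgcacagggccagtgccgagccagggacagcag
The Ucp3 window holds AGGTCA 2 times, marked in capitals, and the Pdk4 window has none. Over 300-base windows (250 before to 50 after the start), the hexamer occurred on either strand in 8 of the 32 analysed members with a promoter in the RefSeq table (25.0%) and in 18.1% of all 27025 genes with a promoter there. The perfect direct repeat AGGTCANAGGTCA, the textbook form of a PPAR element, occurred in 0 of these 32 members and in 0.0481% of all.

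Acot1 and Acot2, neighbouring genes for the cytosolic and the mitochondrial acyl-CoA thioesterase, lie 15624 bases apart on chromosome 12. Acot1 had 14.69, 8.921, 8.461, 14.17, 9.189 and 7.989 FPKM in controls and 7.601, 8.418, 7.958, 10.92 and 6.825 in PCOS. Control replicates 1 and 4 held the 2 highest values, and the 4 other controls lay within the PCOS range. The difference was -0.29 ± 0.16 (unadjusted p = 0.0984, limma).

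Acot2 had 39.96, 38.58, 38.64, 48.51, 37.00 and 34.60 FPKM in controls and 33.73, 34.08, 31.33, 38.34 and 29.78 in PCOS. Of the 5 PCOS samples, 4 lay below every control, and the fifth, replicate 4, lay among them. The difference was -0.23 ± 0.09 (95% interval -0.42 to -0.05; unadjusted p = 0.0188, adjusted p = 0.738, limma). The transcripts of the 2 genes are 95.1% identical over 1274 aligned bases, and the division of reads between them is uncertain. The ratio of Acot2 to Acot1 was 2.72 to 4.57 in controls and 3.51 to 4.44 in PCOS.

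Ucp2, a carrier of the same family as Ucp3 and its neighbour on chromosome 7 at a distance of 6904 bases, was the member with the largest difference above 0. Its controls had 35.67, 42.31, 35.98, 24.76, 34.49 and 34.61 FPKM, and the PCOS samples had 43.22, 40.96, 45.85, 33.48 and 47.21. PCOS replicates 1, 3 and 5 were above every control, and PCOS replicate 4 was below all controls but 1. The difference was 0.28 ± 0.12 (95% interval 0.02 to 0.54; unadjusted p = 0.0347, adjusted p = 0.738, limma).

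Ucp2 is known to be expressed in macrophages as well. Macrophage markers (6 of 8 with a row, none at 0 in all samples) summed to 129.4 to 249.1 FPKM in controls and to 276.7 to 387.0 in PCOS, with no overlap. Control replicate 4 had the lowest of both. Control replicate 2, with the highest control Ucp2, had a sum of 189.5. Control replicates 5 and 6, with the highest control sums (249.1 and 246.3), had Ucp2 at 34.49 and 34.61. In PCOS, replicate 4 had the lowest sum (276.7) and the lowest Ucp2 (33.48). Replicates 3 and 5 stood above the other PCOS samples in both, with sums of 387.0 and 340.0 and Ucp2 at 45.85 and 47.21. The highest sum was thus in replicate 3 and the highest Ucp2 in replicate 5. Erythroid markers (5 of 5 with a row) summed to 530.3 to 1528 and to 849.4 to 2229. The part of these cells in the Ucp2 difference was not tested.

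**Figure D3:**
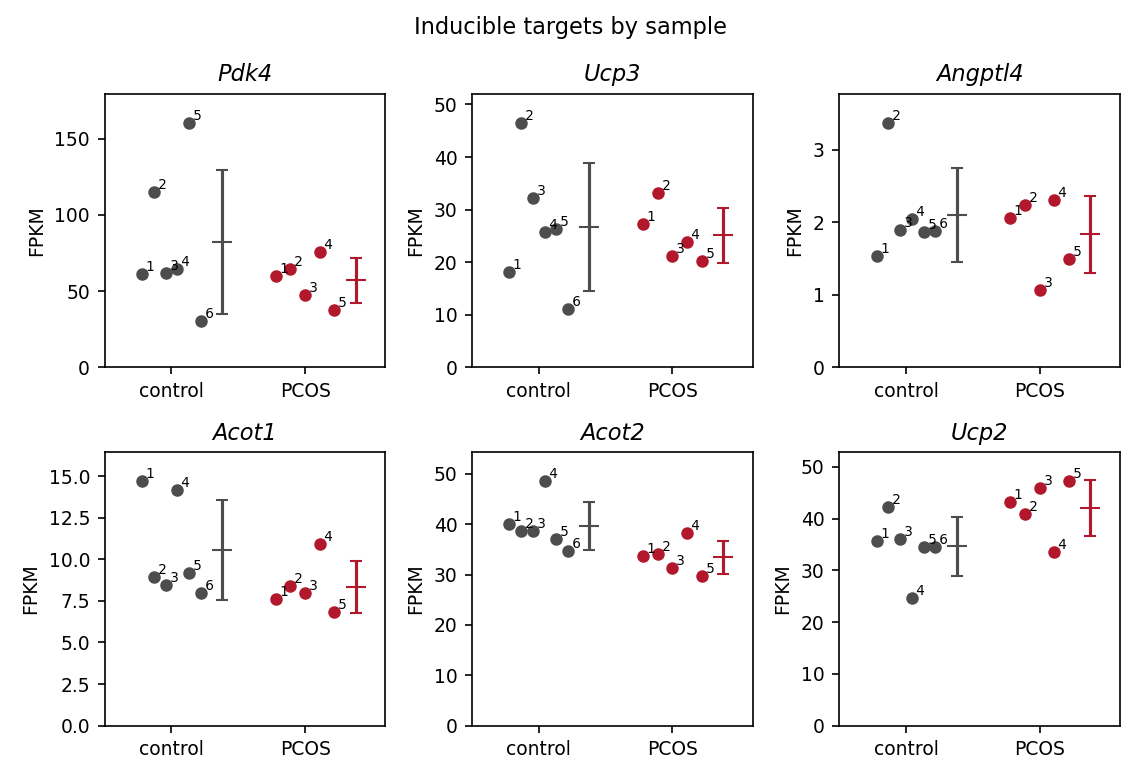
FPKM (vertical axes, starting at 0) of the 6 inducible targets in each control and PCOS sample, numbered by replicate, with mean and SD beside the points. Control replicates 2 and 5 are high for Pdk4, replicate 2 for Ucp3 and Angptl4, and replicates 1 and 4 for Acot1.

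Control replicate 2 held the highest control value of Ucp3, Angptl4 and Ucp2 and the second highest of Pdk4, whereas control replicate 5 was high for Pdk4 and control replicates 1 and 4 for Acot1. Over the 11 samples, log2 levels of Pdk4 and Ucp3 had a Pearson r of 0.68 and a Spearman rho of 0.66 (permutation p = 0.0234 and 0.0302; 0.141 and 0.0906 after Benjamini-Hochberg adjustment over 6 pairs). Ucp3 and Angptl4 had r = 0.61 and rho = 0.67 (adjusted permutation p = 0.144 and 0.0906), and Pdk4 and Angptl4 r = 0.50 and rho = 0.58 (adjusted permutation p = 0.231 and 0.1). Acot1 had r between -0.03 and 0.26 with the other 3 genes, although its rho with Pdk4 was 0.61 (adjusted permutation p = 0.1). No pair passed the adjustment.

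After subtracting group means, Pdk4 and Ucp3 had r = 0.72 (adjusted permutation p = 0.0981). Each pair was also taken without the 2 samples farthest from the median of its first gene. For Pdk4 these were control replicates 5 and 6. Pdk4 and Angptl4 then had r = 0.87 (adjusted permutation p = 0.0388), and Pdk4 and Ucp3 r = 0.75 (adjusted permutation p = 0.0703). Control replicate 5 had the highest Pdk4, 160.5 FPKM, beside an Angptl4 of 1.860, so its removal raises the r of that pair, which was 0.50 with all samples. For Ucp3 and Angptl4, without control replicates 2 and 6, r was 0.65 (adjusted permutation p = 0.114). Of these, Pdk4 and Angptl4 without control replicates 5 and 6 passed the adjusted threshold, and the others did not. The adjustment covers the pairs within a setting and not the choice of samples left out.

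Core enzymes and inducible targets were contrasted directly by averaging, in each sample, the log2 difference of every gene from its control mean. The core average stayed between -0.072 and 0.062 in controls and between -0.042 and 0.037 in PCOS. The inducible average ran from -0.477 in control replicate 6 to 0.365 in control replicate 2, and from -0.321 to 0.029 in PCOS. The core average is over 20 genes and the inducible average over 6. An average over more genes tends to vary less, so the spans are not directly comparable. Core minus inducible was 0.115 higher in PCOS than in controls, with SDs of 0.252 among controls and 0.173 among PCOS samples, so this difference was smaller than the spread within either group. It was 0.196 without control replicate 6, -0.013 without control replicates 2 and 5, and 0.08 without all 3.

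**Figure D4:**
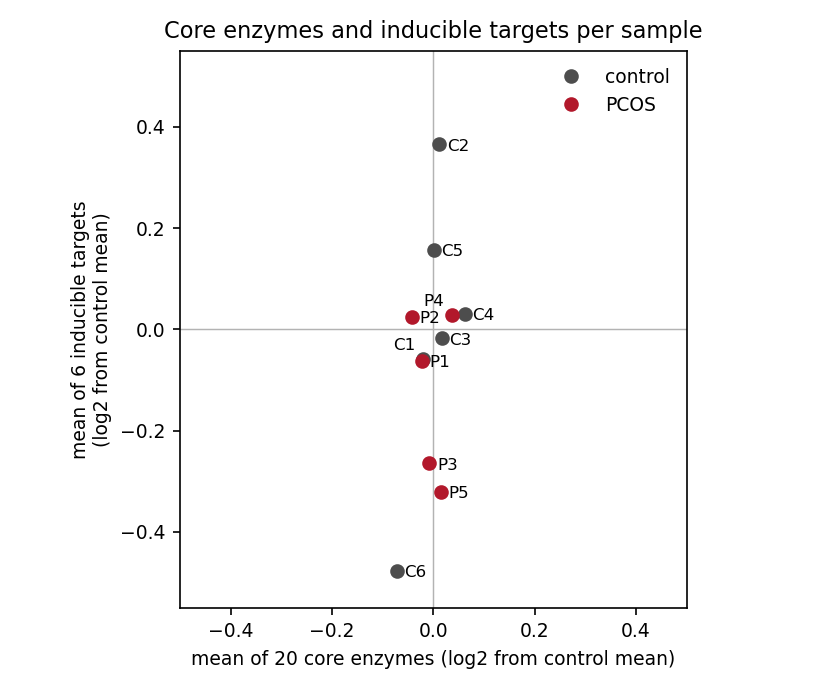
Mean difference from the control mean over the 20 core enzymes (horizontal axis) and over the 6 inducible targets (vertical axis) in each sample, both in log2 units and on the same scale. The samples form a vertical band: the core average spans -0.072 to 0.062 and the inducible average -0.477 to 0.365, with controls at both ends.

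Spread within groups was set beside that of all rows. The pooled SD of log2 levels within groups had a median of 0.085 over the core enzymes, 0.293 over the inducible targets and 0.201 over the other members, against 0.151 over all tested rows. Tested rows in the level range of the core enzymes had a median of 0.135, and those in the range of the inducible targets 0.149. Each range runs from the lowest to the highest member, so rows were not matched to single members in level. Cpt1a, at 13.8 FPKM in controls, set the lower end for the core enzymes, and the next lowest, Eci2, was at 97.8. Pdk4, at 0.667, and Ucp3, at 0.539, lay above 98.9% and 98.5% of tested rows. Acot2, at 0.15, lay above 49.3%, so the wide spread did not hold for every inducible target. Acadvl at 0.05, Acadl at 0.055 and Decr1 at 0.062 lay at the low end. Among the core enzymes Ech1 (0.196), Cpt1a (0.193) and Hadha (0.164) varied most.

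By the medians of the differences, the core enzymes stood at 0.004 (10 above 0, 9 below and Slc25a20 at 0.00), the inducible targets at -0.18 (2 above, 4 below), the other members at -0.063 (3 above, 8 below) and all tested rows at 0.002. All 37 members had a median of -0.038, with 21 of 37 below 0, where 47.9% of all rows were below by 0.005 or more. Without control replicate 6 the core median was -0.024 (7 above, 13 below), the inducible median -0.232 (1 above, 5 below) and that of all members -0.07, with 27 of 37 below 0, where 48.7% of all rows were. Without control replicates 2 and 5 the inducible median was 0.035, above 0.

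Lipid droplet genes and regulators completed the list. Plin5, which tethers lipid droplets to mitochondria, had 60.1 ± 6.09 FPKM in controls and 60.3 ± 2.64 in PCOS. Pnpla2, the lipase that starts the breakdown of stored triglyceride, was at 193 ± 25.2 and 173 ± 11.1, a difference of -0.15 ± 0.09. Without control replicate 6 it was -0.19 ± 0.08 (unadjusted p = 0.0287, adjusted p = 0.203, limma).

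The receptors and their coactivator were expressed at similar low levels. Ppara, the receptor that gives the target list its name, had 8.74 ± 1.79 FPKM in controls and 7.75 ± 0.559 in PCOS. Ppard, the related receptor of muscle and heart, was at 9.34 ± 1.86 and 8.88 ± 1.53, and Ppargc1a, the coactivator that drives mitochondrial genes, at 8.52 ± 1.58 and 8.15 ± 1.032. Their differences of -0.14, -0.06 and -0.05 had standard errors of 0.11, 0.13 and 0.12. Control replicate 1 was the highest sample for both receptors, at 11.52 and 12.71.

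Control replicate 6 set many of the comparisons. It was the lowest of the 11 samples for 14 of 37 members, a position it held in 20.7% of all rows. Without it, an unadjusted p under 0.05 was reached by 10 members with PCOS lower and 3 with PCOS higher, against 9.86% and 9.69% of all rows, and 0 of 37 passed the adjusted threshold, against 0.296% of rows. The 10 lower genes were Cpt1a, Acsl1, Acacb, Acot2, Cd36, Etfdh, Hadha, Pnpla2, Pdk4 and Acot1; the 3 higher were Etfb, Ech1 and Ucp2. Differences near 0 also changed: Acadm, Acads, Eci2 and Plin5 went from above to below 0, Slc27a1 from -0.04 to -0.16 and Ppargc1a from -0.05 to -0.14. Leaving it out removes its liver and adipocyte transcripts together with every other trait of the library. The parts of these traits in the results cannot be told apart and were not tested.

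Transcript length went along with the direction of the differences. Across the 37 members, the difference and the length implied by FPKM and reads had a Spearman rho of -0.55, given as a description since genes share libraries; across all tested rows it was -0.37. Of the 12 members over 3000 bases, 11 were lower in PCOS, with a median of -0.108 against -0.03 for all rows of that length. The 6 members under 1500 bases had a median of 0.067, against 0.09. The libraries differed in this respect: short rows stood above long rows by 0.292 (log2) in control replicate 6 and 0.171 in PCOS replicate 1. The same contrast was -0.261 in control replicate 1. Its median was -0.091 in controls (-0.261 to 0.292) and 0.085 in PCOS (-0.083 to 0.171), so it ran partly with the groups. A PCOS difference of a long or short gene cannot be told apart from this contrast in the uncorrected values.

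When the trend with length was removed in each sample, rho across members was -0.32, and an unadjusted p under 0.05 was reached by 3 members with PCOS lower and none with PCOS higher, against 6.38% of rows in either direction. Cpt1a was then at -0.27 ± 0.09 (unadjusted p = 0.00927, limma), Acot2 at -0.26 ± 0.10 (unadjusted p = 0.0236, limma) and Cd36 at -0.16 ± 0.07 (unadjusted p = 0.0465, limma). Ucp2 stood at 0.24 ± 0.12 (unadjusted p = 0.0568, limma), close to its 0.28 before. Etfb moved from 0.16 to 0.07, Ech1 from 0.20 to 0.13 and Acacb from -0.12 to -0.06. The cause of the length trend was not tested.

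**Figure D5:**
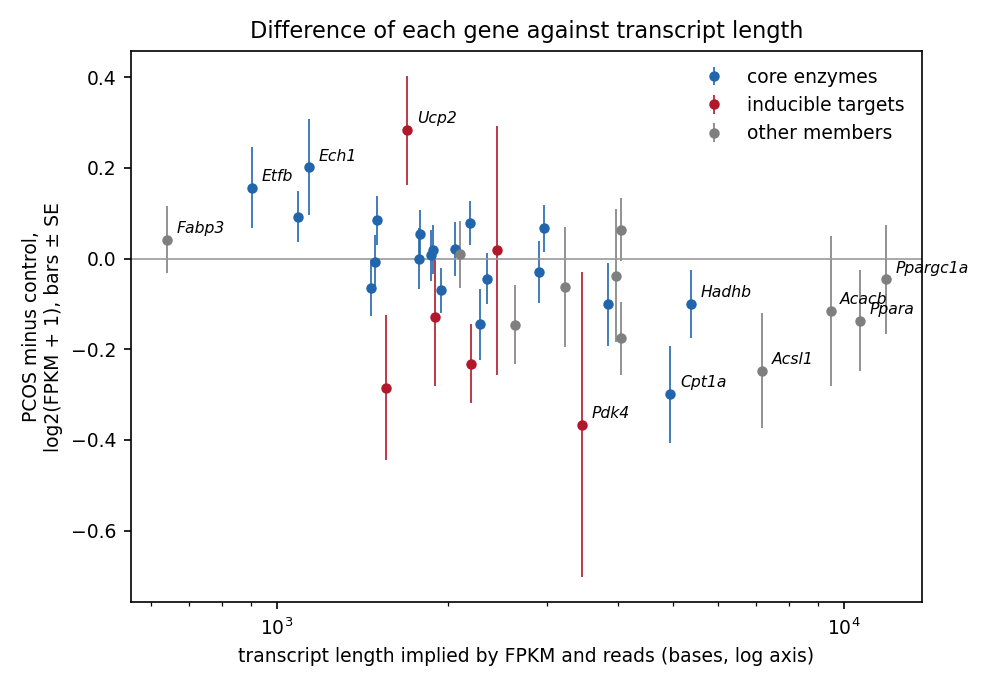
Difference between PCOS and control hearts (vertical axis, log2(FPKM + 1), bars SE) against transcript length in bases (horizontal log axis) for the 37 genes, coloured by class. Of the 12 genes over 3000 bases, 11 lie below 0, and the shortest core enzymes, Etfb, Eci1 and Ech1, lie above it.

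Other genes of the pathway outside the list were also not called. Of 36 with a row, 31 were tested, 11 had a difference above 0, 19 below and 1 within 0.005 of it, the median was -0.04, and 0 passed the adjusted threshold in limma; the unadjusted p was under 0.05 for 1 in each direction. The higher one was Pparg, the PPAR of adipocytes, at 3.41 ± 0.561 FPKM in controls (SD, n = 6) and 4.08 ± 0.483 in PCOS (SD, n = 5; difference 0.21 ± 0.10, unadjusted p = 0.0473, adjusted p = 0.738, limma).

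By group, peroxisomal oxidation had 1 of 8 tested genes above 0 and 6 below, ketone body metabolism 1 and 3 of 4, receptor partners and regulators 3 and 6 of 9, and further PPAR targets and lipid handling genes 6 and 4 of 10.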

How the data were processed

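Heart RNA of 5 PCOS and 6 control samples was sequenced from stranded poly(A) libraries, per the labels' protocols. The submitters' processing notes name HISAT2 2.2.1, HTSeq 0.13.5 and the build mm10, among other tools; settings and the strand counted are not given in the sources used here. The authors deposited FPKM per gene model, used as they stand. Rows were named through RefSeq accessions of GRCm38.p6, the assembly of mm10 (87.2% of 21878 rows matched). FPKM is relative within a library.

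Reads were recovered from the FPKM steps: in 15939 of 15939 rows with 3 or more samples above 0, every value was a whole number of reads (100%, within 0.05), and limma's voom on them called 12 of all rows. Groups were compared with limma 3.58.1 under R 4.3.3 (trend) on log2(FPKM + 1), in rows whose mean FPKM reached 1, all 11 samples, Benjamini-Hochberg over 10891 rows; the log scale understates changes of low genes. The members and lists were chosen with earlier results of these data known. All members are named; of other pathway genes, those with an unadjusted p under 0.05, except a gene that is not reported here. Alternatives were no filter, a filter at 5, a pseudocount of 0.1, median-ratio, quantile and length correction, the replicate block, sample weights, voom, leaving out samples singly, controls 2 and 5, and controls 2, 5 and 6 (added after seeing the data). Correlations used 100000 permutations. Scripts were tested on simulated data. Promoters came from RefSeq (GRCm38.p6).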

Additional observations from a re-analysis of the deposited data

Results flagged for a closer look

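In 80 groups of values (the FPKM of 37 members, the core average, the inducible average and their difference, each in controls and in PCOS), 6 held a highest or lowest sample far from the rest by Dixon's criterion, which chance passes in about 1 of 20 groups. Control replicate 6 was low for Acadm at 646.0 FPKM (next lowest 718.8), for Acads at 137.0 (next 149.7) and for Acacb at 27.19 (next 50.54). PCOS replicate 1 was high for Eci1 at 417.9 FPKM (next highest 375.8) and for Fabp3 at 9704 (next 8311). Control replicate 2 was high for Angptl4 at 3.37 FPKM (next 2.039). Control replicate 6 is the library with liver and adipocyte transcripts. It also had the strongest excess of short over long rows of any sample, 0.292 on the log2 scale. Among PCOS samples this excess was strongest in replicate 1, at 0.171. The part of these traits in the flagged values was not tested.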

How the results depend on the processing

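No member was called under any of the 22 alternatives; the smallest adjusted p was 0.0806, for Acsl1 without control replicate 6. Over all rows, 15 calls became 5 when a mean FPKM of 5 was required, 25 with the replicate block, 25 with sample weights and 26 without control replicates 2, 5 and 6; leaving out single samples gave 10 to 32, the highest without control replicate 6. The core median became -0.042 under quantile normalization. The inducible median became 0.035 without control replicates 2 and 5, and core minus inducible 0.223 with sample weights. The labels do not say whether replicate numbers pair the samples. Same-number correlations of deviations were 0.133, -0.032, -0.118, 0.254 and 0.101, and those of different numbers ran from -0.478 to 0.277. Such correlations over all rows cannot decide whether samples were paired. Control replicate 6 has no partner, so the block drops it. Angptl4 and Acot1 had r = -0.03 as deviations from group means, and Pdk4 and Angptl4 r = 0.87 without control replicates 5 and 6 (permutation). Of 813 differences of single members under alternatives, 764 kept their direction and 49 turned, all but Pdk4 with main differences of at most 0.064 in size. With length correction these were Acadm -0.005, Eci2 -0.013, Plin5 -0.016, Acads -0.026, Fabp3 -0.058 and Ppargc1a 0.015. With quantile normalization they were Eci2 -0.007, Plin5 -0.007, Fabp3 -0.009, Acadm -0.012, Lpl -0.035 and Acads -0.048. With the replicate block they were Acadm -0.007, Eci2 -0.007, Acads -0.021, Plin5 -0.041 and Ucp3 -0.196. With sample weights they were Acadm -0.006, Acads -0.012, Plin5 -0.028 and Ucp3 -0.259. Without control replicates 2 and 5 they were Echs1 0.049, Ppargc1a 0.061 and Pdk4 0.091. Without control replicates 2, 5 and 6 they were Eci2 -0.018, Acads -0.033 and Echs1 0.034. Leaving out single samples gave ranges that crossed 0 for Cpt1b (-0.06 to 0.009), Acadm (-0.008 to 0.05), Acads (-0.021 to 0.034), Echs1 (-0.027 to 0.02), Eci2 (-0.007 to 0.039), Fabp3 (-0.007 to 0.075), Slc27a1 (-0.155 to 0.036), Ucp3 (-0.196 to 0.199), Plin5 (-0.041 to 0.038), Ppard (-0.118 to 0.046) and Ppargc1a (-0.137 to 0.01). Differences of 0.00 at 2 decimals were taken as having no direction. Why values moved was not tested. Angptl4, at 29 to 89 reads per sample, is the member that depth limits most.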
